A study of Mus musculus with 4 samples.

Results

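The 10 chemokine genes described here, Ccl2, Ccl6, Ccl7, Ccl8, Ccl9, Ccl12, Cxcl1, Cxcl5, Cxcl12 and Cxcl16, were picked by symbol from the 32285 genes measured in spatial transcriptomes of the infarcted mouse heart. Adult ICR mice at 12 weeks of age had the left anterior descending (LAD) coronary artery tied permanently, and 1 heart was taken on each of days 1, 4, 7 and 14. A 10 µm section of each fresh frozen heart was placed on a Visium slide, on which every capture spot collects the mRNA of the several cells above it, and each molecule is counted once by its unique molecular identifier (UMI). The first heart is called day 1 here after the sample labels and the methods, although 1 passage of the study's text names a later day for it. Each day is thus 1 section of 1 mouse, no section of an uninjured heart was analysed here, and day, mouse and section cannot be told apart.

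Chemokines are small secreted proteins that guide white blood cells along their gradients. Ccl2, Ccl7 and Ccl12 bind Ccr2 on inflammatory monocytes, the cells that become macrophages in the infarct, and Ccl8 belongs to the same gene cluster. Ccl6 and Ccl9 are ligands of Ccr1, whereas Cxcl1 and Cxcl5 act through Cxcr2 and draw neutrophils, the first cells to enter an infarct. Cxcl12 holds and attracts cells that carry Cxcr4 and is taken up by the scavenger receptor Ackr3. Cxcl16 is made as a membrane protein, is released by the proteases Adam10 and Adam17, and binds Cxcr6.

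In the GENCODE annotation of GRCm38, the build of the files, Ccl2 (chromosome 11, 82035571 to 82037453), Ccl7 (82045712 to 82047525), Ccl12 (82101845 to 82103400) and Ccl8 (82115185 to 82116799) lay in this order on the plus strand. Ccl9 (83572919 to 83578636) and Ccl6 (83587882 to 83593087) lay next to each other on the minus strand of the same chromosome, which also holds Cxcl16 (70453983 to 70459984, minus strand). Cxcl5 (90759360 to 90761624) and Cxcl1 (90891241 to 90893115) were on the plus strand of chromosome 5, and Cxcl12 (117168535 to 117181367) was on the plus strand of chromosome 6.

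RefSeq promoters of GRCm38.p6, 300 bases from 250 before the start site, were at hand for 6 of the 10 genes (Ccl6, Ccl8, Ccl9, Ccl12, Cxcl1 and Cxcl12). They were searched on both strands for the NF-kappaB motif GGGNNNTTCC (GGAANNNCCC on the other strand) and the AP-1 motif TGANTCA, which are known from inflammatory genes. The promoter of Cxcl1, a neutrophil chemokine whose level was highest on day 1, held 3 NF-kappaB matches, the last 2 of which overlap. That of Ccl9, whose level did not differ between days 1 and 4 beyond counting error, held 1 NF-kappaB and 1 AP-1 match, and that of Ccl8, which was highest on day 4, held neither, like those of Ccl6, Ccl12 and Cxcl12. Of all 32851 promoters of this length, 5.56% held the NF-kappaB and 7.81% the AP-1 motif. Ccl12 was highest on day 1 like Cxcl1, and Ccl6 was high on days 1 and 4 like Ccl9, yet their promoters held no match. Whether the motifs go with the course was not tested. Capitals mark the matches in the 3 promoters, written 5′ to 3′, which are shown as examples of the 3 courses over time.
Cxcl1 (chr5:90890995-90891294, plus strand): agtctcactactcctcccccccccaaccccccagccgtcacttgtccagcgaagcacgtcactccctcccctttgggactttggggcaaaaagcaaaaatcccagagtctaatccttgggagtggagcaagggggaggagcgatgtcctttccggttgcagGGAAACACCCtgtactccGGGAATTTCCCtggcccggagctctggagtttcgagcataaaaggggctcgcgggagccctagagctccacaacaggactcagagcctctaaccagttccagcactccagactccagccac
Ccl9 (chr11:83578587-83578886, minus strand): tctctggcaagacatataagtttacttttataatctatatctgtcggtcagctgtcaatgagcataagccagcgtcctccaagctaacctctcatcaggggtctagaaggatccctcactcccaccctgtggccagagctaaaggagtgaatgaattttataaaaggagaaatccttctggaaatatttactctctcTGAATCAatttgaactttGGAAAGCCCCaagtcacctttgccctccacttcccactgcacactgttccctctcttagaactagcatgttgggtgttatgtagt
Ccl8 (chr11:82114935-82115234, plus strand): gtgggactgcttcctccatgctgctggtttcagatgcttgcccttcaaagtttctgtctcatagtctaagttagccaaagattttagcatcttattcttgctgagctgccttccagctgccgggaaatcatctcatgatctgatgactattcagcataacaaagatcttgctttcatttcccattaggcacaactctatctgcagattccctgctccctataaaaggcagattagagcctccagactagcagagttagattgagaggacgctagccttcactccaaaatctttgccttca

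Spots with over 1% of hemoglobin UMIs were left out, which kept 7503 of 9102 spots and 9292678 to 15713779 UMIs per section. All 4 sections carried 1332 barcodes in common, because a Visium barcode marks a position on the slide. Cardiomyocyte markers were abundant in every section (Tnnt2, cardiac troponin T, at 4371 to 5097 of every 1000000 UMIs). On day 7, 118 of 1848 kept spots held at least 10 UMIs of skeletal muscle genes. All 5 mesothelial markers listed were highest in that section. Of the adipocyte markers only Car3 was highest there, at 96.7 of every 1000000 UMIs, and the other 4, among them Adipoq (2.91 on day 7), were highest on day 1. Of the atrial markers Dkk3 (48.7), Sln (21.0) and Myl4 (5.49) were highest on day 7, while Myl7 was at 0.43 and Bmp10 at 0.

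Over whole sections, the monocyte and neutrophil chemokines split into 3 courses. Ccl2, Ccl7, Ccl12, Cxcl1 and Cxcl5 were highest on day 1, Ccl6 and Ccl9 were high on days 1 and 4, and Ccl8, Cxcl16 and Cxcl12 were highest on day 4 or 7. The summed level of the 10 genes was 684, 536, 394 and 172 CPM (counts of the 10 genes per 1000000 UMIs of the section) on days 1, 4, 7 and 14. With 1 mouse a day no test between days was made, and the 95% exact Poisson intervals given here cover counting error only. In such sums, fewer cells of a type, less RNA per cell and less injured tissue in the section cannot be told apart. Fibroblast markers differed widely between the sections. Col1a1 was at 182, 2262, 2583 and 244 CPM on days 1, 4, 7 and 14, and Postn at 56.7, 801, 934 and 85.6. Of the cardiomyocyte markers, 5 were highest on day 14 and 3 on day 1. The part of these differences in the courses was not tested.

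Ccl2, the main Ccr2 ligand, stood at 124, 40.6, 12.1 and 4.07 CPM on days 1, 4, 7 and 14, so that day 1 was 30.5 times day 14 (interval 23.7 to 39.8). Its neighbour Ccl7 followed the same order with 106, 30.7, 9.36 and 2.86 CPM. Ccl12 had the same order over a narrower range, with 29.3, 18.3, 11.5 and 4.26. All 3 had intervals that did not overlap between any 2 days, with day 1 the highest and day 14 the lowest.

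The neutrophil chemokines stood apart on day 1. Cxcl1 was at 23.2 CPM on day 1 and at 4.32, 4.09 and 1.15 on the later days. Cxcl5 was at 41.8 on day 1 and at 6.55, 7.75 and 1.21 thereafter. For both genes the intervals of days 4 and 7 overlapped, and day 1 was more than 5 times the next highest day (5.36 times for Cxcl1 and 5.39 times for Cxcl5). Of the 10 neutrophil markers listed, 7 were highest on day 1 as well, among them the calgranulin S100a8, at 49.5 CPM on day 1 and at 6.67 to 11.8 on the other days. Mmp9, a gelatinase, was highest on day 4, at 13.9, 19.0, 7.10 and 1.85 CPM, and G0s2 on day 14, at 59.0, 52.9, 59.5 and 69.5. Ly6g, a defining marker, was at 0 on days 1, 4 and 7.

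Ccl6 was at 134, 120, 56.8 and 28.0 CPM, and Ccl9 at 61.7, 63.6, 35.6 and 11.7. The Ccl9 values of days 1 and 4 could not be separated at this depth (ratio of day 4 to day 1 1.03, interval 0.935 to 1.14). Ccl8 was highest on day 4, with 21.1, 64.1, 45.5 and 14.9 CPM. Cxcl16 ran alongside, with 17.2, 49.6, 45.5 and 12.6, and its values on days 4 and 7 differed by less than counting error. Cxcl12 differed least between the sections, with 126, 139, 166 and 91.4 CPM, a range of 1.82 times between days 7 and 14. Macrophage markers were also highest at these middle times, Lyz2 for example at 327, 1439, 950 and 312 CPM, and their part in the chemokine levels was not tested.

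**Figure D1:**
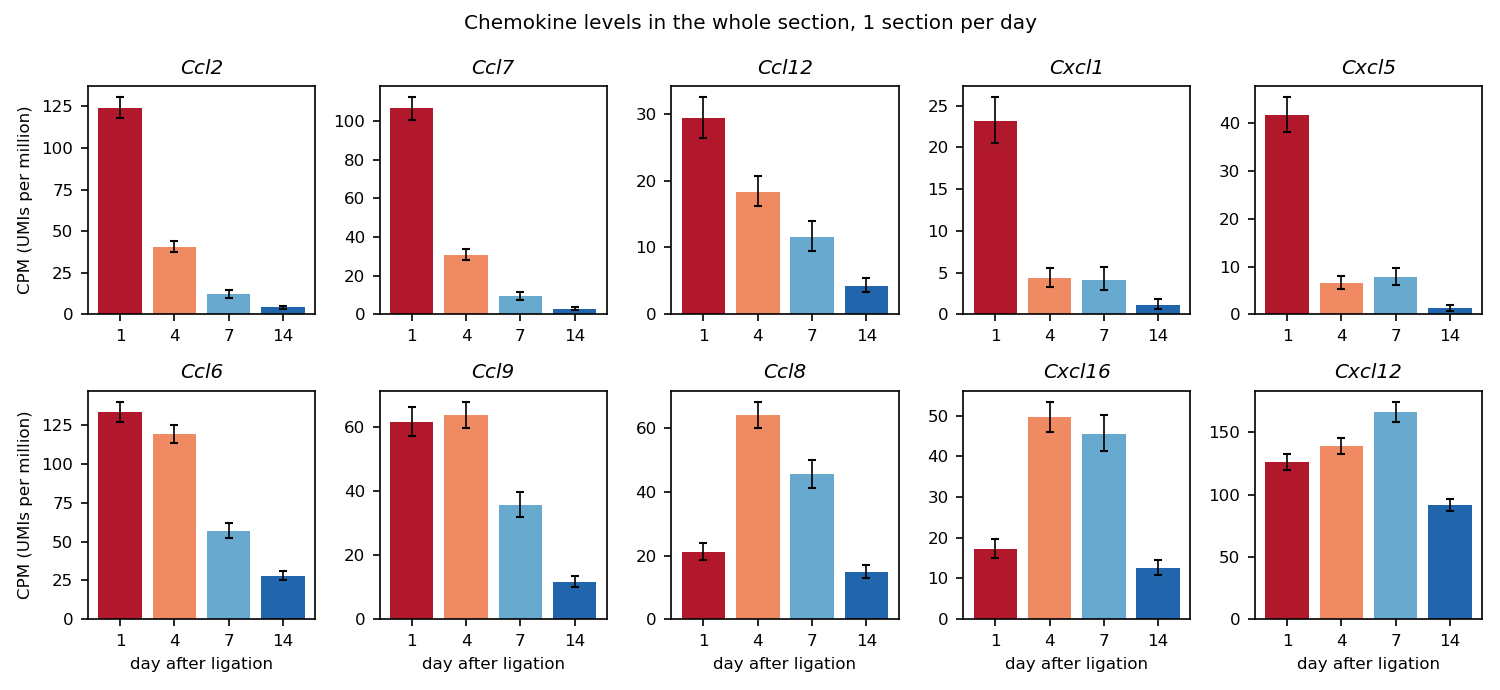
Level of each chemokine in CPM over all kept spots of the section of days 1, 4, 7 and 14 (1 section and 1 mouse per day). Bars are the measured values and whiskers the 95% exact Poisson intervals, which cover counting error only. Ccl2, Ccl7, Ccl12, Cxcl1 and Cxcl5 are highest on day 1, while Ccl8 and Cxcl16 are highest on day 4 and Cxcl12 on day 7.

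To ask where in the section the chemokine mRNA lay, spots of each section were ranked by the share of their UMIs from Myh6 and Myl2, myosin genes of working ventricular muscle, and cut into quartiles. A quartile is a fixed share of spots, so that its tissue need not be alike between days. Myh6 and Myl2 made up 0.77, 0.27, 0.23 and 1.53% of the UMIs of the lowest quartile on days 1, 4, 7 and 14. All 10 chemokines were higher in the lowest than in the highest quartile on every one of the 4 days, and all 10 passed the test (edgeR quasi-likelihood test on UMIs summed per section and quartile with the section as a block, adjusted p from 5.62e-06 to 0.00120). This has to be read against a background of 27.5% of the 11621 genes tested that were called higher and 25.0% that were called lower. The median log2 fold change was 2.77 over the 10 chemokines and 0.07 over all genes tested. With total UMIs in place of TMM factors, which moves the median of all genes to 0.71, the chemokine median was 3.42 and all 10 were still called, while the genes called higher and lower changed from 3198 and 2901 to 6804 and 1233.

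Among the Ccr2 ligands, Ccl2 stood at 359, 177, 40.1 and 15.9 CPM in the muscle-poor quartile on days 1, 4, 7 and 14. In the muscle-rich quartile it stood at 19.6, 3.68, 6.14 and 0.95. Within every section the muscle-poor quartile was higher by 6.53 times or more. The day 14 value of the poor quartile (33 UMIs) lay below the day 1 value of the rich quartile (57 UMIs), within counting error. The fitted log2 fold change of Ccl2 was 3.62 ± 0.54 (SE, adjusted p = 0.000138 by edgeR, 4 sections).

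Ccl7 was at 264, 137, 30.6 and 9.16 CPM in the muscle-poor quartile against 8.93, 2.89, 3.07 and 1.19 in the muscle-rich one, a log2 fold change of 4.07 ± 0.51. The poor quartile of each day exceeded the rich quartile of all days for Ccl7, but day 14 (19 UMIs) exceeded the rich quartile of day 1 (26 UMIs) only within counting error. Ccl12 was at 60.1, 63.8, 36.7 and 14.9 against 4.12, 2.10, 5.76 and 4.99, and its log2 fold change was 2.57 ± 0.51. In the muscle-poor quartile Ccl12 was thus no lower on day 4 than on day 1, unlike in the whole section, and its intervals for these days overlapped. That quartile had a lower Myh6+Myl2 share on day 4 (0.27%) than on day 1 (0.77%), and the part of this was not tested. The poor quartile held 65.9% of all Ccl2 UMIs of the section on day 1 and 83.9% on day 4, but 22.8% and 19.2% of all UMIs. For Cxcl5 it held 70.5, 77.7, 86.1 and 89.5% on the 4 days, and for Cxcl12 30.6, 44.2, 35.4 and 21.9%, beside 22.8, 19.2, 15.8 and 13.2% of all UMIs.

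Cxcl5 had the steepest fitted gradient of the 10, and Cxcl1, the other neutrophil chemokine, ranked below Ccl7 and Ccl2. Differences between the fits of these genes were not tested. Cxcl5 was at 129, 26.5, 42.2 and 8.20 CPM in the muscle-poor quartile and at 2.75, 1.31 and 0.384 in the muscle-rich quartile of days 1, 4 and 7, with 0 UMIs there on day 14. The muscle-rich values of days 1, 4 and 7 rested on 8, 5 and 1 UMIs, and the ratio of day 7 had an interval of 19.0 to 4407. A count of 0 allows up to 0.712 CPM in the muscle-rich quartile of day 14, at 3 counts, so that the muscle-poor quartile, with 17 UMIs, was at least 11.5-fold higher than this floor on day 14. The exact lower limit of the ratio, which takes in the counting error of the 17 UMIs too, was 8.38. The log2 fold change of Cxcl5 was 4.96 ± 0.50. Cxcl1 was at 77.7, 13.8, 19.0 and 5.79 CPM against 4.46, 0.788, 1.15 and 0.475, a log2 fold change of 3.39 ± 0.39. The rich quartiles of days 4, 7 and 14 held 3, 3 and 2 UMIs of Cxcl1, so that the folds of single days are imprecise, at 17.5 times (interval 5.55 to 88.5) on day 4 for example.

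Of the Ccr1 ligands, Ccl6 was at 363, 435, 177 and 124 CPM in the muscle-poor quartile and at 21.3, 30.2, 27.3 and 13.1 in the muscle-rich quartile, a log2 fold change of 2.83 ± 0.34. Ccl9 was at 173, 236, 112 and 41.0 against 8.93, 15.2, 14.6 and 8.55, a log2 fold change of 2.72 ± 0.36. For both genes the poor quartiles of all days lay above the rich quartiles of all days. Both also reached their highest level on day 4 within the poor quartile, while Ccl6 was highest on day 1 in the whole section. The Myh6+Myl2 share of the poor quartile was 0.77% on day 1 and 0.27% on day 4, and the part of this was not tested.

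Ccl8 was at 34.5, 162, 149 and 67.03 CPM in the muscle-poor quartile and at 6.52, 13.4, 8.06 and 11.9 in the muscle-rich one, with a log2 fold change of 2.52 ± 0.51. On day 1 the second quartile, at 37.2, was as high for Ccl8 as the lowest, within counting error. Cxcl16 was at 30.1, 165, 155 and 41.5 against 8.58, 9.19, 14.6 and 7.36, a log2 fold change of 2.42 ± 0.29. Cxcl12 had the flattest gradient, at 169, 319, 371 and 152 CPM against 101, 70.7, 109 and 78.3, a log2 fold change of 0.80 ± 0.17 (adjusted p = 0.00102, edgeR).

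**Figure D2:**
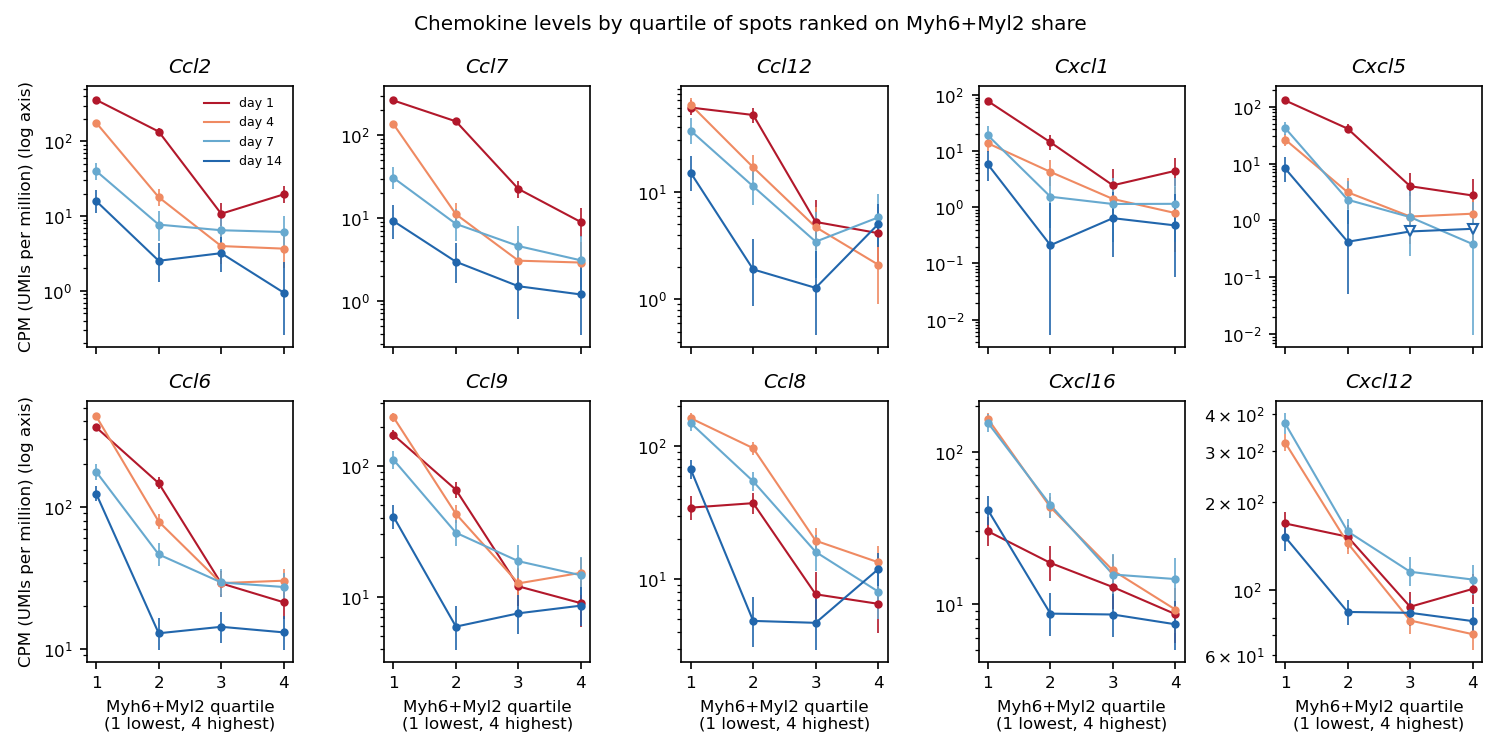
CPM (log axis) of each chemokine in the 4 quartiles of spots ranked on Myh6+Myl2 share, from 1 (lowest) to 4 (highest), with 1 line for each day. Whiskers are 95% exact Poisson intervals and open triangles mark quartiles with 0 UMIs, drawn at the level of 3 UMIs. The lowest quartile is above the highest on each day for all 10 genes.

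The muscle-poor quartile also differed in its cell type markers. The summed macrophage markers (12 genes) ranged over the 4 days from 1681 to 8597 CPM in it and from 406 to 616 in the muscle-rich quartile. The neutrophil markers (10 genes) ranged from 152 to 492 against 81.0 to 96.8, the monocyte markers (6 genes) from 76.7 to 249 against 6.88 to 12.7, and the fibroblast markers (10 genes) from 3320 to 44461 against 2731 to 3906. The neutrophil sum includes G0s2, which alone was at 52.9 to 69.5 CPM over whole sections and was not highest on day 1. Endothelial markers, at 1085 to 1385 and 1114 to 1267 CPM, overlapped between the quartiles. Cardiomyocyte markers were lower in the muscle-poor quartile but still abundant, at 7982 to 30870 CPM against 42289 to 48561. On day 14 the Myh6+Myl2 share was 1.53% in the poor and 2.56% in the rich quartile. The median depth was then 2326 UMIs per spot in the poor quartile and 8280.5 in the rich one. Skeletal muscle genes reached 20340 CPM in the poor quartile of day 7. Without the spots that carried them, all 10 chemokines were still called. The part of each cell type in the chemokine levels was not tested.

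Receptor genes of the list with the 100 UMIs needed for the test were compared in the same way. Ccr2, the receptor of Ccl2, Ccl7 and Ccl12, was higher in the muscle-poor quartile (log2 fold change 3.55 ± 0.59), at 48.8, 32.6, 26.5 and 9.16 CPM on days 1, 4, 7 and 14. Ccr1 (3.24 ± 0.47), Cx3cr1 (2.66 ± 0.59) and Cxcr4 (1.67 ± 0.35), the receptor of Cxcl12, were higher as well. Ackr3, which removes Cxcl12, was lower in the muscle-poor quartile (fell by 0.99 on the log2 scale, SE 0.23). Ackr3 stood at 58.7 and 57.3 CPM in the poor and the rich quartile on day 1, at 50.4 and 84.6 on day 4, at 49.0 and 100.2 on day 7 and at 71.8 and 68.6 on day 14, so that it differed beyond counting error on days 4 and 7 only. With total UMIs in place of TMM the Ackr3 difference was -0.37 and no longer called (adjusted p = 0.0819, edgeR). Cxcr2 and Cxcr6, the receptors of the neutrophil chemokines and of Cxcl16, had 71 UMIs each in all and were not tested. On day 1, 35 of the Cxcr2 UMIs fell in the muscle-poor quartile and 2 in the muscle-rich one.

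Of the other chemokines, 11 of 20 could be tested and 7 were higher in the muscle-poor quartile, beside 27.5% of all genes tested. Of these 7, Ccl4, Cxcl13 and Cxcl3 reached the 100 UMIs only through the muscle-poor quartile, so that the filter favoured a difference and their calls carry no weight. It held 130 of the 173 UMIs of Ccl4, 94 of the 112 of Cxcl13 and 94 of the 104 of Cxcl3. Cxcl3 was at 23.5, 9.06, 2.72 and 0.482 CPM there on the 4 days and had 0 UMIs in the muscle-rich quartile on each. The other 4 called were Cxcl10 (log2 fold change 4.91), Ccl5 (1.91), Pf4 (1.54) and Cx3cl1 (1.39). Ccl11, Ccl24, Cxcl9 and Cxcl14 were not called, with log2 fold changes from -0.37 to 0.42. With total UMIs, 6804 of the 11621 genes tested were called higher and the median log2 fold change over all genes was 0.71. Cxcl14 was then called higher (1.08) and Ccl11 turned from -0.37 to 0.25, uncalled. Of 11 genes that control or process chemokines, 10 were tested and 8 were higher, beside the same 27.5% of all genes. Among the 8 were Nfkbiz (2.43), Relb (1.42) and Cebpd (1.26), which take part in NF-kappaB and C/EBP signalling, and the Cxcl16 sheddases Adam10 (0.86) and Adam17 (0.53). Nfkbia and Tnfaip3 were not called, but were called higher with total UMIs (0.91 and 1.28, beside the median of 0.71 over all genes). Tnfaip3 reached the 100 UMIs only through the muscle-poor quartile, which held 42 of its 111, so that its call with total UMIs carries no weight.

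Spots were next ranked by the share of Ankrd1, Flnc, Xirp2 and Nppb, genes that cardiomyocytes raise under stretch and injury. None of the 10 chemokines was called between the highest and the lowest quartile of this ranking (edgeR, adjusted p from 0.599 to 0.998). None had an unadjusted p under 0.05, beside 1205 of the 11621 genes tested. None was called by DESeq2 either, and the background of edgeR was 0.551% of genes called higher and 0.310% called lower. The median log2 fold change was -0.26 over the chemokines and -0.02 over all genes. With total UMIs in place of TMM the genes called higher and lower were 106 and 28 in place of 64 and 36. The receptors, other chemokines and regulators of the lists had 0 calls by edgeR as well, with 1, 3 and 0 of them at an unadjusted p under 0.05 and 1 other chemokine called by DESeq2.

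The 4 sections did not run the same way. On day 1 all 10 chemokines were higher in the stress-high quartile, with intervals of the ratio above 1. On day 7 all 10, and on day 14 all 10, were lower there, 10 and 7 of them with intervals below 1. On day 4, 8 were lower, 5 of them beyond counting error. Without the section of day 1, 6 chemokines were called lower in the stress-high quartile, namely Ccl2, Ccl6, Ccl7, Ccl9, Cxcl5 and Cxcl16, with a median log2 fold change of -1.55 over all 10. Of all genes, 3.16% were then called lower.

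Ccl2 was at 310 CPM in the stress-high and 9.75 in the stress-low quartile on day 1, and at 28.7 and 102 on day 4. On days 7 and 14 it was at 10.6 and 31.3 and at 3.85 and 8.89. Ccl7 turned likewise, from 247 against 8.74 on day 1 to 19.6 against 75.6 on day 4. Ccl6 went from 297 against 22.9 to 99.1 against 241, and Ccl9 from 139 against 11.4 to 50.3 against 137. Ccl8 was the 1 chemokine still higher beyond counting error on day 4, in the stress-high quartile, at 116 against 63.3 (ratio 1.84, interval 1.55 to 2.17), and turned only on day 7, at 48.9 against 82.3. Cxcl12 and Cxcl16 were within counting error on day 4, at 184 against 167 and at 65.6 against 66.8. Cxcl1 and Cxcl5 had the widest swing, at 60.2 against 2.35 and 94.3 against 2.69 CPM on day 1 but at 1.10 against 15.6 and 2.56 against 33.6 on day 7, where Cxcl1 had 3 UMIs in the stress-high quartile. The overlap of the stress ranking with the muscle ranking differed between the days. On day 1, 325 of the 472 spots of the muscle-poor quartile were also in the stress-high quartile, and on days 4, 7 and 14 130 of 420, 39 of 462 and 162 of 521 were. Macrophage markers moved with the chemokines, at 1461 CPM in the stress-high and 409 in the stress-low quartile on day 1 but at 3048 and 4120 on day 4, 1691 and 4189 on day 7 and 638 and 1270 on day 14. Their part was not tested.

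The stress quartiles were therefore formed again among the spots outside the muscle-poor quartile, an alternative added after the first result was seen. Among these spots, 9 of the 10 chemokines were higher where the stress genes were high (edgeR, adjusted p from 0.000179 to 0.0427), beside 13.5% of 10811 genes called higher and 13.4% called lower. The exception was Ccl9 (log2 fold change 1.19 ± 0.46, adjusted p = 0.0875). The median log2 fold change was 2.22 over the chemokines and 0.02 over all genes. With total UMIs in place of TMM the genes called higher and lower were 4056 and 531 in place of 1459 and 1445, all 10 chemokines were called, and their median was 2.56 beside 0.37 over all genes. The count fell to 4 without the section of day 4 (Ccl8, Ccl12, Cxcl1 and Cxcl5) and to 6 without the section of day 1, while the share of all genes called higher fell to 7.34% and 10.7%. Cxcl1 and Cxcl5, with 105 and 180 UMIs in these spots, reached the 100 UMIs needed only through the stress-high quartile, which held all but 36 and 37 of them. Their calls therefore carry no weight, in the count of 9 as in that of 4. The median includes both genes, and the lowest adjusted p above (edgeR) is that of Cxcl5.

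Ccl2 was at 186, 21.6, 12.1 and 3.62 CPM in the stress-high quartile of these spots on days 1, 4, 7 and 14 and at 4.54, 3.59, 3.97 and 2.11 in the stress-low quartile. The ratio shrank from 41.1 on day 1 over 6.03 and 3.04 to 1.72 on day 14, and the last could not be told from 1 (interval 0.624 to 5.15). Ccl8 showed no such fall from day 1 to day 4, with 43.8, 115, 49.2 and 9.96 against 5.44, 10.1, 7.94 and 8.13. Its ratio was 8.05 on day 1 (interval 4.42 to 16.1) and 11.4 on day 4 (7.85 to 17.1), and these intervals overlapped. Cxcl16 also had its highest ratio, 4.17, on day 4 (49.0 against 11.7 CPM), and Cxcl12 had 2.49 then (160.2 against 64.2). For Cxcl16 the interval of day 4 (2.86 to 6.22) overlapped that of day 7 (1.90 to 4.76). On day 14, only Ccl12 had an interval of the ratio above 1, at 5.13 against 1.81 CPM.

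Ccr2 was higher in these stress-high spots (log2 fold change 3.60 ± 0.49), as were Cx3cr1 (2.11 ± 0.49), Ccr1 (1.50 ± 0.42) and Ackr3 (0.36 ± 0.10). Cxcl10 (4.87), Cx3cl1 (1.50) and Pf4 (0.88) were the 3 other chemokines called, of 8 tested, beside 13.5% of all genes called higher. Ccr1, Ccr2, Cx3cr1 and Cxcl10 also reached the 100 UMIs only through the stress-high quartile of these spots, so that their calls carry no weight. Macrophage markers were at 1042 CPM in the stress-high and 411 in the stress-low quartile of these spots on day 1, 2603 and 530 on day 4, 1610 and 630 on day 7 and 515 and 391 on day 14. Neutrophil markers were at 183 against 88.0 on day 1 and at 60.4 against 76.6 on day 4. G0s2 alone was at 59.0 CPM over the whole section of day 1 and at 52.9 on day 4. This sum need therefore not follow neutrophils. Cardiomyocyte markers stayed abundant in the stress-high quartile of these spots, at 26812 to 40718 CPM. They lay below those of the muscle-rich quartile of the Myh6+Myl2 ranking, at 42289 to 48561 CPM. The part of cardiomyocytes, and of a remaining difference in muscle, in the result was not tested.

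**Figure D3:**
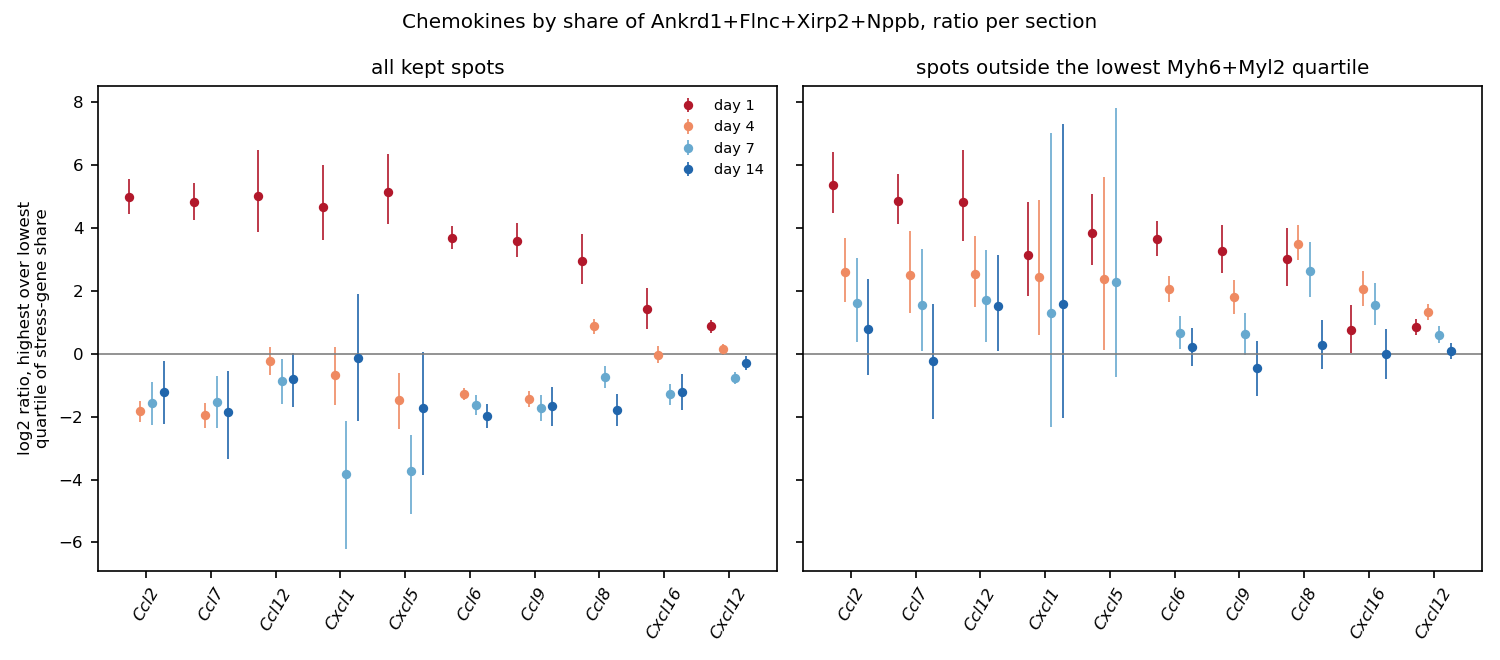
Log2 ratio of the level in the highest over the lowest quartile of spots ranked on Ankrd1+Flnc+Xirp2+Nppb share, per section, with 95% exact intervals that cover counting error only. Left, all kept spots, where all 10 genes lie above 0 on day 1 and all 10 below 0 on days 7 and 14; right, spots outside the lowest Myh6+Myl2 quartile, where all 10 lie above 0 on days 1, 4 and 7. Cxcl5 on day 14 has 0 UMIs in the low quartile on the right and is not drawn.

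The muscle-poor quartile was finally split at the median share of macrophage, fibroblast or endothelial markers, none of which is a chemokine, to ask with which cells the chemokines varied inside it. In the macrophage-rich spots, edgeR called 0 of the 10 chemokines and 0% of all genes in either direction (adjusted p of the chemokines from 0.0921 to 0.435), although 8 of the 10 and 2401 of 11621 genes had an unadjusted p under 0.05. The tested macrophage markers that made the split were thus not called either, so that the missing calls do not show the chemokines to be alike. DESeq2 called 6 higher, Ccl2, Ccl6, Ccl7, Ccl8, Ccl9 and Cxcl5, beside 1.62% of all genes called higher. With edgeR 6 were called higher without the section of day 1, beside 2.06% of all genes, and 3 without that of day 14, beside 1.45%. All 10 had a fitted log2 fold change above 0, from 0.52 ± 0.27 for Cxcl12 to 2.00 ± 0.42 for Ccl6, with a median of 1.31 beside 0.02 over all genes (1.74 beside 0.43 with total UMIs).

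Ccl6 was at 556, 751, 300.3 and 537 CPM in the macrophage-rich spots on days 1, 4, 7 and 14 and at 209, 210.2, 70.8 and 20.5 in the macrophage-poor spots. Every section had the same direction for Ccl6, and the ratio was 26.2 on day 14 but 2.65 to 4.24 on the other days. Ccl8 was at 50.3, 239, 261 and 313 against 21.8, 107, 53.1 and 5.43. On day 1, 4 of the 10 chemokines had a ratio whose interval included 1. They were Cxcl1, at 70.1 in the macrophage-rich and 83.8 in the macrophage-poor spots (ratio 0.836, interval 0.627 to 1.11), Cxcl12 (1.01, 0.835 to 1.22), Cxcl5 (1.10, 0.888 to 1.37) and Cxcl16 (1.38, 0.872 to 2.18).

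The macrophage-rich and macrophage-poor spots differed in other markers too. Fibroblast markers were at 3978, 48638, 60273 and 40266 CPM in the macrophage-rich spots on days 1, 4, 7 and 14 and at 2792, 35995, 30879 and 4388 in the macrophage-poor spots. Monocyte and neutrophil markers were also higher in the macrophage-rich spots on each day, neutrophil markers for example at 884 against 69.3 on day 14. Cardiomyocyte markers ran the other way, at 22545, 3269, 4243 and 9478 against 23759, 11332, 12832 and 36227. On day 7 the macrophage-poor spots held 37104 CPM of skeletal muscle genes and the macrophage-rich spots 826. The median depth was lower in the macrophage-rich spots on each day, most of all on day 14, at 1219 against 6816.5 UMIs per spot. The part of these differences in the chemokine levels was not tested.

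Between the fibroblast-rich and the fibroblast-poor spots edgeR again called 0 chemokines and 0% of all genes in either direction, while 7 chemokines and 1820 genes had an unadjusted p under 0.05 and DESeq2 called 1 higher, Cxcl5, beside 0.482% of all genes called higher. With edgeR the tested fibroblast markers that made this split were not called either, so that the missing calls again do not show the chemokines to be alike. The fitted log2 fold changes ran from 0.56 ± 0.66 (Ccl6) to 1.47 ± 0.54 (Cxcl5), with a median of 0.89. Ccl6 went against the other 9 on day 7, at 121 CPM in the fibroblast-rich and 221 in the fibroblast-poor spots. Cxcl12, a product of stromal cells, was at 184, 404, 623 and 380 CPM in the fibroblast-rich spots and at 157, 247, 174 and 101 in the fibroblast-poor spots, a log2 fold change of 0.70 ± 0.30 (adjusted p = 0.317, edgeR). Macrophage markers moved with the fibroblast split, at 2147, 10186, 8137 and 8484 CPM in the fibroblast-rich spots and at 1306, 7239, 4290 and 790.1 in the fibroblast-poor spots. On day 7 the fibroblast-poor spots held 35785 CPM of skeletal muscle genes and the fibroblast-rich spots 660.5. The part of either was not tested.

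Between the spots rich and poor in endothelial markers, Ccl2 and Ccl12 were lower where endothelial markers were rich, 2 of 10 beside 0.198% of all genes called lower and 0.336% called higher. Ccl2 was at 327, 132, 38.7 and 7.74 CPM in the endothelial-rich spots and at 391, 225, 41.4 and 26.3 in the endothelial-poor spots (fell by 0.54 on the log2 scale, SE 0.13, adjusted p = 0.0203, edgeR). Ccl12 was at 42.3, 49.8, 32.9 and 14.6 against 78.1, 78.3, 40.1 and 15.4 (fell by 0.64, SE 0.16, adjusted p = 0.0367, edgeR). The ratios of both were below 1 in all 4 sections, with intervals below 1 on days 1, 4 and 14 for Ccl2 and on days 1 and 4 for Ccl12. Monocyte markers were lower in the endothelial-rich spots on each day, at 155, 242, 183 and 57.6 CPM against 190.2, 256, 197 and 101. Macrophage markers were lower there on days 1, 4 and 14, at 1570 against 1794, 7725 against 9502 and 1612 against 2920, and higher on day 7, at 6303 against 5691. Their part in the difference was not tested. Cxcl12, which endothelial cells can make, did not pass the test, with a log2 fold change of 0.01 ± 0.10. Neither call was made by DESeq2, without the section block, without the section of day 4, or with the hemoglobin limit at 0.5%.

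**Figure D4:**
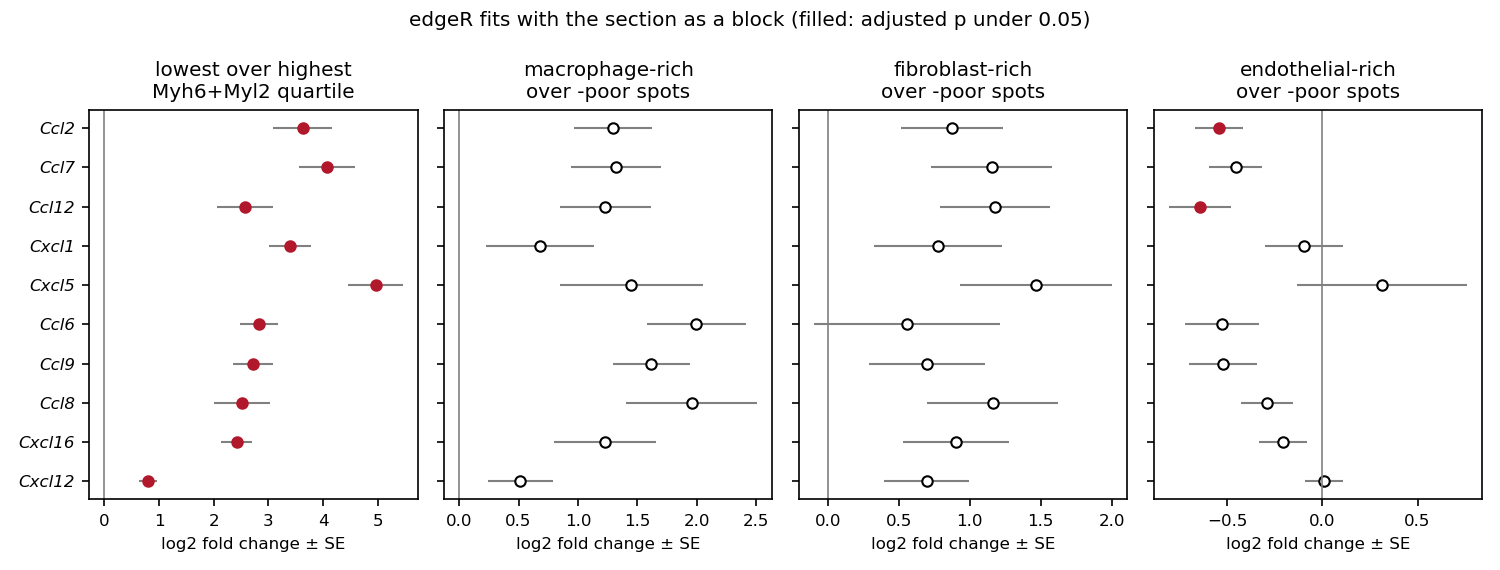
Fitted log2 fold change of each chemokine, with its standard error, between the lowest and highest Myh6+Myl2 quartile and between spots of the lowest quartile that are rich and poor in macrophage, fibroblast and endothelial markers (edgeR with the section as a block, 4 sections). Filled points have an adjusted p under 0.05. All 10 genes are filled in the first panel, none in the macrophage and fibroblast panels, and Ccl2 and Ccl12 in the endothelial panel.

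Patterns were compared over the 16 libraries of section and Myh6+Myl2 quartile. For the 7 chemokines with at least 1000 UMIs, Pearson's r of log2(CPM + 1) is given as a description, since libraries share sections and the muscle gradient. Ccl2 and Ccl7 had r = 0.973 and each was the gene closest to the other among all genes with 1000 UMIs. Ccl6 and Ccl9 had r = 0.986. Cxcl16 had r = 0.945 with Cxcl12 and 0.932 with Ccl8, while Ccl7 and Ccl8, which lie in the same cluster, had r = 0.582, the lowest of the 21 pairs. The genes closest to Cxcl16 were Rcn3 (0.990), Bmp1 (0.988) and Col5a1 (0.986). Those closest to Ccl9 were Cd63 (0.989), Ccl6 and Il4ra (0.986), and those closest to Ccl8 were H2-T23 (0.964), Lox (0.964) and Fn1 (0.959). Cxcl12 was nearest to Txndc5 (0.984), Shisa5 (0.983) and Kctd17 (0.982).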

How the data were processed

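The deposited files hold raw UMI counts per gene and spot, which the authors made with Space Ranger 1.3.0 on mm10 and analysed further with Seurat 4.1.1, per the labels. Spots over 1% hemoglobin UMIs (8 genes) were left out, UMIs were summed per section and group of spots, and levels are CPM (UMIs of a gene per 1000000 UMIs of the group). Depth was 9292678 to 15713779 UMIs per section, and intervals (95%, exact Poisson, or exact conditional for ratios) cover counting error only. Genes with at least 100 UMIs were tested with edgeR 4.0.16 (R 4.3.3, glmQLFit with robust estimation, TMM, section as a block, Benjamini-Hochberg over all genes tested, threshold 0.05), with DESeq2 1.42.0, total UMIs, other UMI minima, no section block, other hemoglobin limits and leaving out each section among the alternatives. Sections differ in day and mouse, so p-values measure how far a difference between groups of spots held over 4 sections. In the fits of the 2 rankings all 4 quartiles were kept, so that the middle quartiles of the same sections add to the estimate of the spread. With only the 2 compared groups, the genes called in the Myh6+Myl2 ranking fell from 6099 to 4423. The fits were also run on simulated data with the same dispersion for all genes and the same effect in every section. The real data differ in both, with common dispersions from 0.0065 (endothelial split) to 0.081 (fibroblast split). That run therefore does not vouch for the calls given here. Chemokines, gene lists and rankings were chosen with earlier results of these data known. All 10 chemokines are named, other genes from the fixed lists, and the 3 genes of most alike pattern. Ccl19, Ccl21a and Ccl27a, which have several gene IDs, were left out. Part of the receptor list is not reported here.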

Additional observations from a re-analysis of the deposited data

Results flagged for a closer look

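Between the highest and lowest quartile of the stress-gene ranking, 4 chemokines ran one way in the section of day 1 and the opposite way in all 3 later sections, with every interval of the ratio away from 1. The log2 ratio of day 1 exceeded the mean log2 ratio of days 4, 7 and 14 by 6.52 for Ccl2, 6.59 for Ccl7, 5.33 for Ccl6 and 5.20 for Ccl9. With 1 mouse a day this difference between days was not tested. No group held the 4 samples needed to look for a single deviating sample.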

How the results depend on the processing

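The lowest against the highest Myh6+Myl2 quartile kept all 10 chemokines higher and called under every alternative run (7 of 7 where genes needed 1000 UMIs), and the genes called, 6099, came to 3232 with that minimum and 3842 for spots below against above the median. The stress ranking depended most on the processing. Its 100 genes called became 171 with DESeq2, 10 without the section as replicate block, 3 with only the compared groups, 35 for the outer deciles, 4 around the median, 2904 outside the muscle-poor quartile and 15 to 594 with 1 section left out. Chemokines called higher became 9 outside the muscle-poor quartile, and those called lower ranged from 0 to 6, the 6 without day 1. Outside the muscle-poor quartile, log2 fold changes that were below 0 over all spots turned above 0 (Ccl2 3.15, Ccl6 1.52, Ccl7 3.13, Cxcl5 3.08, Cxcl12 0.38, Cxcl16 0.89 and, though not called, Ccl9 1.19). Signs also turned without the replicate block (Ccl2 1.09, Ccl7 1.15, Cxcl5 1.01), around the median (Ccl2 0.12, Cxcl5 0.022, Cxcl12 0.016), with DESeq2 (Ccl8 -0.011, Cxcl1 -0.46), at 1000 UMIs (Ccl8 -0.014), at 0.5% hemoglobin (Ccl8 -0.055) and for the outer deciles (Ccl8 -0.93, Ccl12 -0.086, Cxcl1 -0.14). With 1 section left out, Ccl2 ranged from -1.71 to 0.66, Ccl7 from -1.87 to 0.75, Ccl8 from -0.37 to 0.65, Ccl12 from -0.58 to 0.69, Cxcl1 from -1.49 to 1.29, Cxcl5 from -2.42 to 0.97 and Cxcl12 from -0.31 to 0.036.

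Between macrophage-rich and macrophage-poor spots, 0 chemokines and 0 genes became 6 and 601 with DESeq2, 2 and 295 at 10 UMIs, 2 and 108 without the hemoglobin filter, 2 and 188 for spots of 1000 UMIs, 0 and 17 without skeletal muscle spots, and 0 to 6 and 0 to 940 with 1 section left out. For fibroblast markers they became 1 and 364 with DESeq2, 0 and 4 at 10 UMIs and 0 and up to 38 with 1 section left out (lowest 0), where Ccl6 ranged from -0.15 (without day 14) to 1.21. For endothelial markers, 2 chemokines and 62 genes became 0 and 13 with DESeq2 and 0 and 0 without the replicate block. They became 0 and 36 at 0.5% hemoglobin and 0 to 3 and 26 to 89 with 1 section left out. With total UMIs they were 1 and 59, at 1000 UMIs 1 and 43, without skeletal muscle spots 1 and 84, and at 10 UMIs 4 and 85. Values near 0 turned for Cxcl1 (0.017 without the hemoglobin filter, -0.39 to 0.053 with 1 section left out), Cxcl5 (-0.085 with DESeq2) and Cxcl12 (-0.0042 at 1000 UMIs, -0.065 without skeletal muscle spots, -0.099 to 0.095 with 1 section left out).

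Outside the muscle-poor quartile, a ranking chosen after seeing the data, the 2904 genes called became 4587 with total UMIs and 1624 to 3177 with 1 section left out, and the 9 chemokines became 4 to 10, fewest without day 4. These counts include Cxcl1 and Cxcl5, whose calls carry no weight there. The causes were not tested, apart from fewer genes or sections where the setting itself removes them. Of 800 levels recomputed, 719 moved by less than counting error. Depth limits Cxcl1 and Cxcl5 most, with few UMIs per quartile after day 1.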
